A study of Mus musculus with 12 samples.

Results

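The genes described here are 44 genes of the extracellular matrix and of hepatic stellate cells, chosen by symbol from the 55401 genes counted in mouse liver. All 44 had counts and passed the filter on low counts, which left 15982 genes to test. RNA was sequenced from livers of male C57BL/6 mice in 4 groups of 3 libraries each. LKO-HFHS and FLOX-HFHS mice had eaten a diet rich in fat and sugar, which the labels abbreviate HFHS, for 16 weeks, and LKO-NC and FLOX-NC mice were on the control diet. No feeding time is given for the control groups. FLOX mice carried floxed Lpcat3 alleles (LPCAT3flox/flox), and LKO mice carried the same alleles together with a Cre whose promoter the labels do not give (LPCAT3flox/flox-cre), so every group shared the floxed alleles. The labels give an age of 8 to 10 weeks for all groups, shorter than the feeding time, and leave unsaid whether 1 library means 1 mouse. The p-values below therefore describe only how these libraries scatter, which may be technical.

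The matrix around liver cells is laid down chiefly by mesenchymal cells, above all the stellate cells of the space of Disse, which store vitamin A when quiescent and turn into contractile, collagen-secreting myofibroblasts in injured liver. Fibrillar collagens form the tough fibres of a scar, and type IV collagen, laminins and nidogen form sheet-like basement membranes. Glycoproteins and small proteoglycans space and decorate the fibres, lysyl oxidases cross-link them, and matrix metalloproteinases and their tissue inhibitors (TIMPs) govern their turnover. Transforming growth factor beta and platelet-derived growth factor are the classical ligands that drive stellate cell activation.

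Libraries held between 34951150 and 59205759 counts, of which the ribosomal RNA gene CT010467.1 took 5.81% to 32.7%. Its share was 26.7%, 13.1% and 8.33% in LKO-HFHS and 25.9%, 18.1% and 22.9% in FLOX-HFHS. On the control diet it was 9.29%, 5.81% and 9.45% in LKO-NC and 32.7%, 8.74% and 5.91% in FLOX-NC. Lpcat3, which encodes a lysophospholipid acyltransferase, stood at 25 to 29.4 CPM (counts scaled to library size) in LKO-HFHS and at 72.6 to 80.6 CPM in FLOX-HFHS. On the control diet Lpcat3 stood at 25.4, 65 and 19.4 CPM in LKO-NC and at 49.7, 49.9 and 61.9 CPM in FLOX-NC, so the library labelled LKO-NC replicate 2 went against its label. The Lpcat3 difference between LKO and FLOX had a log2 fold change of -1.51 ± 0.35 (SE) on HFHS (unadjusted p 0.000948, adjusted p 0.683) and of -0.56 ± 0.35 on NC (adjusted p 0.718). Under the diet Lpcat3 differed by -0.45 ± 0.35 in LKO and 0.50 ± 0.35 in FLOX, and by 0.03 ± 0.25 averaged over both (adjusted p 0.562, 0.493 and 0.962). The 13 hepatocyte markers matched all had counts, and their summed level was 49600 to 61900 CPM in the HFHS libraries and 55200 to 111000 CPM in the NC libraries.

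Most matrix genes rose on the HFHS diet, while the contractile and cytoskeletal genes Acta2, Tagln, Des and Vim did not pass the test. Averaged over both genotypes, 29 of the 44 genes were higher in HFHS livers and 0 were lower by edgeR's quasi-likelihood test, with p-values adjusted by Benjamini-Hochberg and called under 0.05. Of all tested genes 11.1% were called, 6.17% higher and 4.94% lower. All 5 fibrillar collagens, 6 of 7 basement membrane genes and all 4 microfibrillar and fibril-associated collagens rose. Of the other groups, 7 of 12 glycoprotein, proteoglycan and elastic fibre genes, 4 of 8 remodelling and cross-linking genes, 2 of 3 ligand and receptor genes and 1 of 5 contractile and stellate cell genes rose. The median log2 fold change was 1.27 over the 44 genes, beside 0.02 over all tested genes, and 39 of the 44 had a positive log2 fold change, beside 51.6% of all tested genes. In these bulk samples, more cells of a type and more RNA per cell cannot be told apart.

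**Figure D1:**
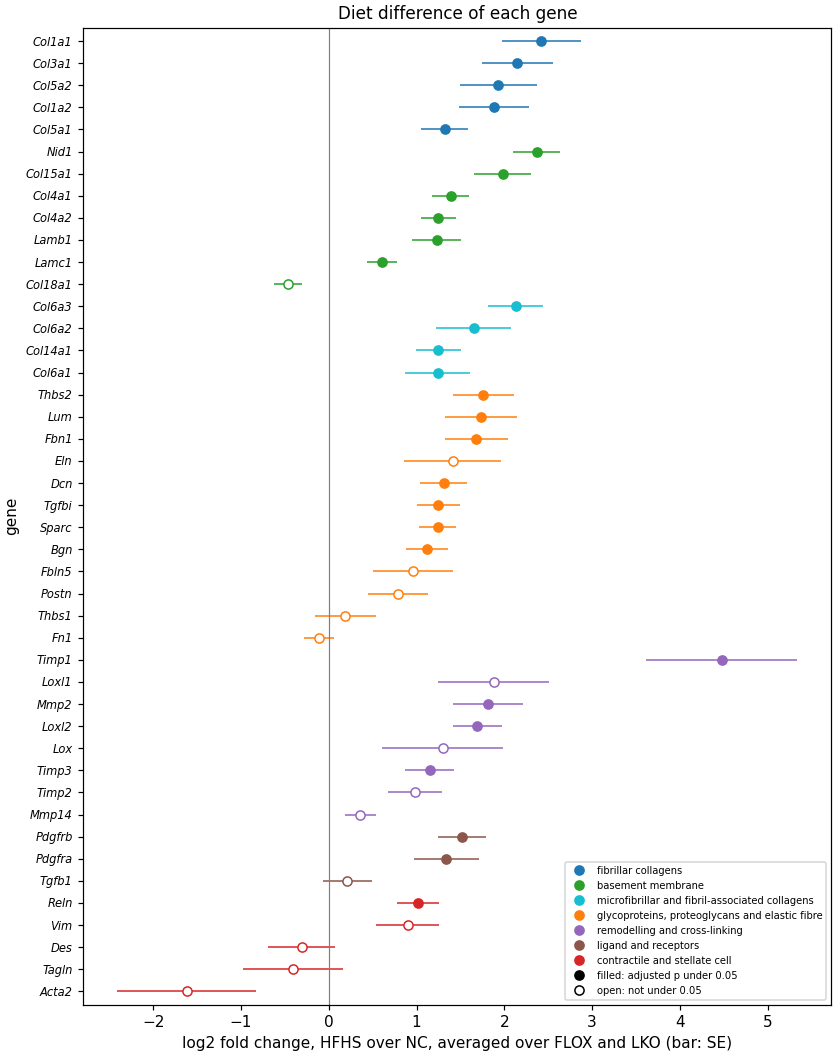
Log2 fold change of each of the 44 genes, HFHS over NC and averaged over FLOX and LKO, with its SE as a bar; colours mark the role and filled points an adjusted p under 0.05. Timp1 lies farthest right at 4.48, the fibrillar collagens lie between 1.32 and 2.42, and Acta2 lies farthest left at -1.62.

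For 15 of the 44 genes all 6 HFHS libraries lay above all 6 NC libraries, as they did for 4.16% of tested genes. These 15 were Col1a1, Col3a1, Col5a2, Col4a1, Col4a2, Col15a1, Lamc1, Nid1, Col6a3, Sparc, Thbs2, Timp1, Mmp2, Loxl2 and Pdgfrb. The median deviation of the 44 genes from their own means was 0.36 to 1.06 (log2) in the HFHS libraries, against -1.47 to -0.31 in 5 NC libraries and 0.19 in the sixth, FLOX-NC replicate 2. Without FLOX-NC replicate 2 the diet averaged over genotypes was called for 31 genes, and without LKO-NC replicate 2, the library with the lowest median, for 24.

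**Figure D2:**
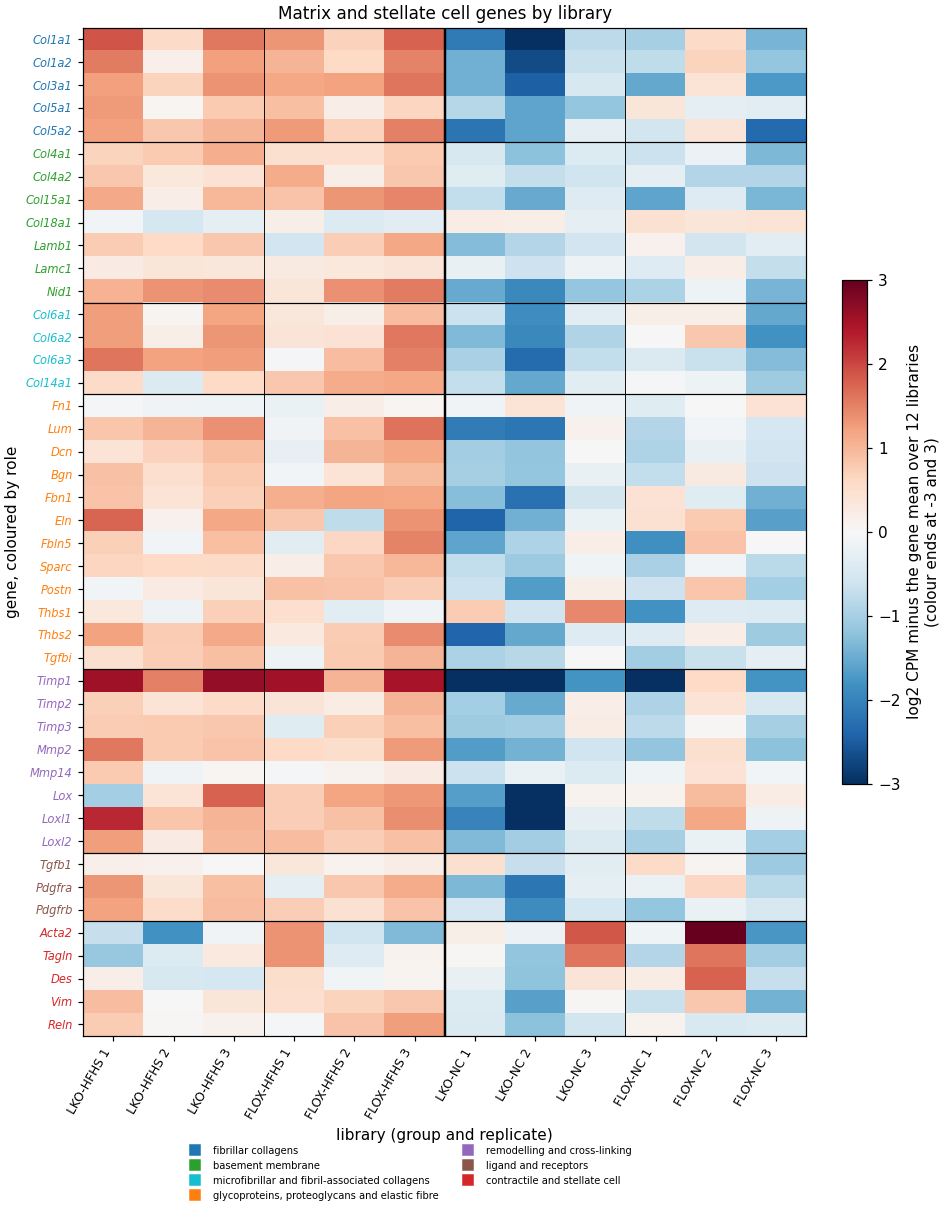
Log2 CPM of each gene minus its mean over the 12 libraries, by library, with genes grouped by role and HFHS libraries left of the thick line. Red fills most of the HFHS side outside the contractile block, FLOX-NC replicate 2 is red for Acta2, Tagln and Des, and LKO-NC replicate 2 is the bluest column.

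Fibrillar collagens had the largest median log2 fold change of the 7 role groups, 1.93. Col1a1 encodes the alpha 1 chain of type I collagen, the main collagen of scar. It had 16.7, 6.77 and 13.6 CPM in LKO-HFHS and 11.4, 7.3 and 15.5 CPM in FLOX-HFHS, against 1, 0.473 and 2.61 CPM in LKO-NC and 2.22, 6.69 and 1.7 CPM in FLOX-NC. The lowest HFHS library, LKO-HFHS replicate 2, lay just above FLOX-NC replicate 2, and the other 5 NC libraries lay well below both. The log2 fold change was 2.42 ± 0.45 (SE), an adjusted p of 0.00446. Col1a2, the partner chain, had 36.6, 13.8 and 29.5 CPM in LKO-HFHS and 25.4, 18.8 and 35.2 CPM in FLOX-HFHS, against 4.54, 1.89 and 7.79 CPM in LKO-NC and 7.33, 19.7 and 5.55 CPM in FLOX-NC. Here FLOX-NC replicate 2 lay above 2 HFHS libraries, so the groups overlapped, and the log2 fold change was 1.88 ± 0.40 with an adjusted p of 0.00924.

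Col3a1 encodes type III collagen, which forms the fine reticulin network of liver and is the most abundant of the fibrillar collagens here per length. It had 79.5, 53.8 and 85.8 CPM in LKO-HFHS and 75.4, 77.8 and 102 CPM in FLOX-HFHS, against 12.4, 6.14 and 24 CPM in LKO-NC and 11.7, 44.8 and 10.1 CPM in FLOX-NC. Every HFHS library was above every NC library, FLOX-NC replicate 2 again being the highest NC value. The log2 fold change was 2.15 ± 0.40, adjusted p 0.00469. On the authors' FPKM, fragments scaled to transcript length and library size, Col3a1 averaged 13.3 ± 4.53 in LKO-HFHS and 11.6 ± 4.13 in FLOX-HFHS, against 2.23 ± 1.49 in LKO-NC and 3.27 ± 3.17 in FLOX-NC (SD, n = 3). The type V chains, which nucleate type I fibrils, also rose, Col5a2 by 1.93 ± 0.44 and Col5a1 by 1.32 ± 0.27 (log2, SE; adjusted p 0.0144 and 0.00765). Col5a1 had 6.37, 2.7 and 4.54 CPM in LKO-HFHS and 4.89, 2.99 and 4.1 CPM in FLOX-HFHS, against 1.42, 0.84 and 1.15 CPM in LKO-NC and 3.38, 2.16 and 2.07 CPM in FLOX-NC. FLOX-NC lay closer to the HFHS libraries than LKO-NC did for this gene.

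**Figure D3:**
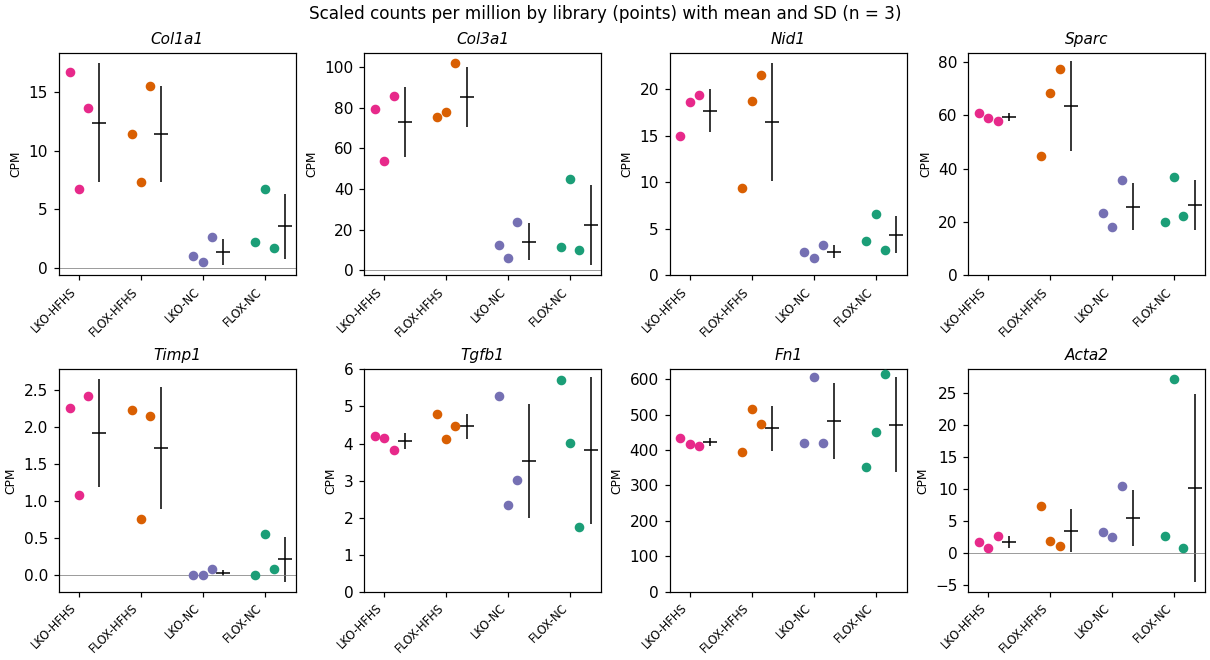
CPM of 8 genes in every library (points), with the mean and SD of each group (n = 3), HFHS groups left of NC groups. Col3a1, Nid1, Sparc and Timp1 show no overlap between HFHS and NC libraries, Tgfb1 and Fn1 overlap fully, and a single FLOX-NC library at 27.1 CPM sets the mean of Acta2.

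The 2 chains of type I collagen did not keep one ratio. In the authors' FPKM the Col1a1 to Col1a2 ratio was 0.406 to 0.441 in LKO-HFHS and 0.347 to 0.4 in FLOX-HFHS, against 0.196 to 0.304 in LKO-NC and 0.26 to 0.305 in FLOX-NC. Every HFHS library had a higher ratio than every NC library, and the ratio was below 1 throughout, whereas the secreted protein holds more alpha 1 than alpha 2 chains. For type IV collagen the Col4a1 to Col4a2 ratio was 2.34 to 3.98 in LKO-HFHS and 1.61 to 3.11 in FLOX-HFHS, against 1.79 to 2.88 in LKO-NC and 1.81 to 4.13 in FLOX-NC, and these ranges overlapped.

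The bases before the RefSeq starts of Col1a2 and Col3a1 are shown as examples of fibrillar collagen genes that rose, with different motifs before those starts. They come from the RefSeq promoter table of build GRCm38.p6, which held 29 of the 44 genes. Within the 250 bases before each start, 5 motifs were searched on both strands, allowing overlaps. They were the GC box GGGCGG bound by Sp1, the CCAAT box (CCAAT), the TATA box (TATAAA), the AP-1 site (TGANTCA) and the CArG box of serum response factor, the last with at most 1 core base other than A or T. The Col1a2 stretch is chr6:4505370-4505492, plus strand, bases 248 to 126 before the start, the longest run of that window free of annotated exons. In the deposited annotation Col1a2 spans chr6:4504814-4541544, so this stretch lies within the gene as counted. The Col3a1 window is chr1:45311288-45311537, plus strand, bases 250 to 1 before the start. Capitals mark motif matches, which in Col1a2 are a CArG box and 2 GC boxes and in Col3a1 a TATA box. The searched Col1a2 window also held a CCAAT box at bases 109 to 105 before the start, outside the printed stretch.
Col1a2: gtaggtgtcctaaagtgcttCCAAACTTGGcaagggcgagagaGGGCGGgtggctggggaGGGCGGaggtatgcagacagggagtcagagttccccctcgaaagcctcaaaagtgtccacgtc
Col3a1: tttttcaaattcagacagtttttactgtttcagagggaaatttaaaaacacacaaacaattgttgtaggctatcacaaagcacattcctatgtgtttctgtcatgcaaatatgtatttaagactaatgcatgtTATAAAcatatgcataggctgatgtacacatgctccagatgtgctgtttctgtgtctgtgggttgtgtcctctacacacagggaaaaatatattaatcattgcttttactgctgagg
A GC box stood in 18 of the 29 windows (62.1%), beside 35.4% of the 27025 genes with a window, and a CCAAT box in 12 (41.4%), beside 37.5%. A TATA box stood in 4 (13.8%, beside 14.3%), an AP-1 site in 1, Col6a1 (3.45%, beside 7.82%), and a CArG box in 5 (17.2%, beside 9.78%). Letters in a window describe the sequence and do not show that a factor binds there.

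Basement membrane genes had a median log2 fold change of 1.25. Nid1 encodes nidogen 1, which links laminin to type IV collagen. It had 15, 18.6 and 19.4 CPM in LKO-HFHS and 9.37, 18.7 and 21.5 CPM in FLOX-HFHS, against 2.51, 1.86 and 3.21 CPM in LKO-NC and 3.72, 6.56 and 2.75 CPM in FLOX-NC. All HFHS libraries exceeded all NC libraries, and the log2 fold change of 2.37 ± 0.27 had the smallest adjusted p of the 44 genes, 0.000158. Its start is preceded by the following stretch, shown because Nid1 had that smallest p (chr13:13437352-13437550, plus strand, bases 250 to 52 before the start, free of annotated exons, with a CCAAT box read on the other strand and a GC box in capitals).
Nid1: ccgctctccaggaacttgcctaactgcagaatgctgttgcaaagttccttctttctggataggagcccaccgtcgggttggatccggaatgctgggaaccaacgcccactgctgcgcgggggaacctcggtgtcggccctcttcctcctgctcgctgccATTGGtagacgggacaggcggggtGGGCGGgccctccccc

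Col4a1 and Col4a2 encode the 2 common chains of type IV collagen, the network of every basement membrane. Col4a1 had 23.6, 25.5 and 31.4 CPM in LKO-HFHS and 20.7, 21 and 25.6 CPM in FLOX-HFHS, against 10.5, 6.33 and 11.2 CPM in LKO-NC and 9.49, 13 and 5.75 CPM in FLOX-NC. Col4a2 had 10.1, 7.17 and 7.7 CPM in LKO-HFHS and 12.5, 6.56 and 10 CPM in FLOX-HFHS, against 4.43, 3.47 and 3.79 CPM in LKO-NC and 4.74, 3.08 and 3.11 CPM in FLOX-NC. Neither gene showed overlap between diets, and they rose by 1.39 ± 0.21 and 1.25 ± 0.20 (log2, SE; adjusted p 0.00126 and 0.00199). They lie head to head on mm10 chromosome 8, Col4a1 at 11198423 to 11312826 on the minus strand and Col4a2 at 11312805 to 11449287 on the plus strand. The annotated genes overlap by 22 bases at chr8:11312805-11312826, shown because the 2 genes share this start region, with the GC box in capitals.
Col4a2: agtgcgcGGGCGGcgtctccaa
Col4a1: ttggagacgCCGCCCgcgcact
Reads within an overlap of opposite strands can be told apart only if the counting used strand, which is not given in the sources used here. Genes on the opposite strand overlapped 20 of the 44 genes and genes on the same strand 10, and 19 had no overlapping gene.

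Col15a1, a collagen at the outer face of basement membranes, rose by 1.98 ± 0.32 (log2, SE; adjusted p 0.00178). The laminin chains Lamb1 and Lamc1 rose by 1.23 ± 0.28 and 0.61 ± 0.17 (adjusted p 0.0127 and 0.0385), and Lamc1 passed the test in 9 of 23 alternative settings. Col18a1, the source of the endostatin fragment, was the only basement membrane gene with a negative value. It had 245, 178 and 215 CPM in LKO-HFHS and 293, 194 and 209 CPM in FLOX-HFHS, against 302, 296 and 215 CPM in LKO-NC and 355, 333 and 342 CPM in FLOX-NC. FLOX-HFHS lay wholly below FLOX-NC, LKO-HFHS and LKO-NC overlapped, and the log2 fold change was -0.46 ± 0.16 with an adjusted p of 0.0831. Its transcript with the upstream start (42 exons) took 55.8% to 65.6% of its counts in LKO-HFHS, 60% to 63.9% in FLOX-HFHS and 52.9% to 59.1% in LKO-NC, against 85.8% to 97.4% in FLOX-NC. These shares are the authors' estimates, and such estimates moved widely between libraries of 1 group elsewhere, as for a retained-intron transcript of Fn1 at 1.57%, 0.0737% and 76.3% in LKO-NC and 1.97%, 89.3% and 11% in FLOX-NC.

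Type VI collagen forms beaded microfibrils between fibres and basement membranes, and collagen XIV sits on the surface of fibrils. Col6a3 had 19.2, 14.4 and 14.9 CPM in LKO-HFHS and 6, 11.8 and 17.9 CPM in FLOX-HFHS, against 3.19, 1.23 and 3.71 CPM in LKO-NC and 4.64, 3.9 and 2.5 CPM in FLOX-NC. The diets did not overlap for Col6a3, and FLOX-HFHS replicate 1 was its lowest HFHS library. It rose by 2.13 ± 0.31 (log2, SE; adjusted p 0.000983), and the partner chains Col6a2 and Col6a1 rose by 1.65 ± 0.43 and 1.24 ± 0.37 (adjusted p 0.0276 and 0.0468). Col6a1 passed the test in 12 of 23 alternative settings, Col6a2 in 17 and Col6a3 in 23. Col14a1 rose by 1.25 ± 0.26 (adjusted p 0.00773), and LKO-HFHS replicate 2, at 14.4 CPM, lay among its NC libraries, at 6.59 to 18.6 CPM.

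Of the 12 glycoproteins, proteoglycans and elastic fibre genes 7 rose, among them 3 leucine-rich proteoglycans, and the abundant fibronectin did not pass the test. Sparc, a secreted collagen-binding protein, had 60.7, 59 and 57.8 CPM in LKO-HFHS and 44.6, 68.4 and 77.2 CPM in FLOX-HFHS, against 23.2, 18.2 and 35.6 CPM in LKO-NC and 19.8, 36.9 and 22.1 CPM in FLOX-NC. All HFHS libraries were higher, and it rose by 1.24 ± 0.21 (log2, SE; adjusted p 0.00296). Thbs2, thrombospondin 2, rose by 1.76 ± 0.35, the fibrillin gene Fbn1 by 1.68 ± 0.36 and Tgfbi, a TGF-beta-induced matrix protein, by 1.25 ± 0.24 (adjusted p 0.00616, 0.00972 and 0.00485). The leucine-rich proteoglycans, which bind collagen fibrils, rose together, Lum by 1.74 ± 0.41, Dcn by 1.31 ± 0.27 and Bgn by 1.12 ± 0.24 (adjusted p 0.0165, 0.00842 and 0.0105).

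Dcn, decorin, was by mean FPKM the most abundant of the 44 genes in LKO-HFHS and FLOX-HFHS, at 83.2 and 68.3. It had 118, 143 and 165 CPM in LKO-HFHS and 75.2, 181 and 198 CPM in FLOX-HFHS, against 42.9, 39.3 and 89.8 CPM in LKO-NC and 46.6, 75.9 and 59.5 CPM in FLOX-NC. FLOX-HFHS replicate 1 fell within the NC range and the other 5 HFHS libraries lay above it. Fn1 encodes fibronectin, which hepatocytes also secrete into plasma, and was by mean FPKM the most abundant in LKO-NC and FLOX-NC, at 65.4 and 67.1. It had 434, 418 and 412 CPM in LKO-HFHS and 393, 517 and 473 CPM in FLOX-HFHS, against 421, 606 and 421 CPM in LKO-NC and 351, 450 and 614 CPM in FLOX-NC. The diets overlapped fully, and its log2 fold change was -0.11 ± 0.17 with an adjusted p of 0.731. Fn1, Dcn and Col18a1 together made up 53.7% of the summed mean FPKM of the 44 genes in LKO-HFHS and 54.1% in FLOX-HFHS, against 70.2% in LKO-NC and 67.7% in FLOX-NC.

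The remaining members of this group did not pass the test. Eln, elastin, had a log2 fold change of 1.41 ± 0.55 and Fbln5, an elastic fibre assembly protein, 0.96 ± 0.46 (adjusted p 0.119 and 0.203). Postn, periostin, had 0.79 ± 0.34 and Thbs1, thrombospondin 1, 0.19 ± 0.35 (adjusted p 0.157 and 0.791). Thbs1 had 4.74, 3.47 and 6.35 CPM in LKO-HFHS and 5.42, 3.08 and 3.58 CPM in FLOX-HFHS, against 6.54, 2.52 and 10.4 CPM in LKO-NC and 1.06, 2.93 and 2.88 CPM in FLOX-NC. Its HFHS libraries lay above NC in FLOX and within the NC range in LKO.

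Among the remodelling genes, Timp1 encodes an inhibitor of metalloproteinases that activated stellate cells secrete. It had 95, 72 and 169 counts in LKO-HFHS and 50, 45 and 104 counts in FLOX-HFHS, against 0, 0 and 4 counts in LKO-NC and 0, 25 and 4 counts in FLOX-NC. Every HFHS library was above every NC library, and FLOX-NC replicate 2 held most of the NC counts. The fitted log2 fold change of 4.48 ± 0.86 (adjusted p 0.0055) rests on those few NC counts, and Timp1 passed the filter on low counts only through its HFHS libraries. Timp3, a matrix-bound inhibitor, rose by 1.15 ± 0.28 (adjusted p 0.0208), and Timp2 had 0.98 ± 0.31 (adjusted p 0.0601).

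Mmp2, the gelatinase of mesenchymal cells, had 3.62, 2.07 and 2.17 CPM in LKO-HFHS and 1.82, 1.73 and 2.92 CPM in FLOX-HFHS, against 0.343, 0.42 and 0.775 CPM in LKO-NC and 0.498, 1.67 and 0.482 CPM in FLOX-NC. No HFHS library reached down to the NC range, and Mmp2 rose by 1.81 ± 0.40 (log2, SE; adjusted p 0.0112). Mmp14, the membrane-bound activator of pro-MMP2, had a log2 fold change of 0.36 ± 0.18 (adjusted p 0.225). Of the lysyl oxidases, Loxl2 rose by 1.69 ± 0.28 (adjusted p 0.00232) with no overlap between diets. Loxl1 had 1.88 ± 0.63 and Lox 1.30 ± 0.69 (adjusted p 0.0736 and 0.257), and each was at 0 CPM in LKO-NC replicate 2.

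Of the ligand and receptor genes, the platelet-derived growth factor receptors rose and Tgfb1 did not pass the test. Pdgfrb, the beta receptor of stellate cells and pericytes, had 9.9, 6.36 and 8.2 CPM in LKO-HFHS and 7.24, 5.96 and 7.82 CPM in FLOX-HFHS, against 3.01, 1.13 and 2.96 CPM in LKO-NC and 1.89, 3.74 and 3.09 CPM in FLOX-NC. The diets did not overlap, and Pdgfrb rose by 1.52 ± 0.27 (log2, SE; adjusted p 0.00305). Pdgfra, the alpha receptor of fibroblasts, rose by 1.34 ± 0.37 (adjusted p 0.034) and passed the test in 12 of 23 alternative settings. Tgfb1, the fibrogenic cytokine, had 4.21, 4.16 and 3.82 CPM in LKO-HFHS and 4.8, 4.11 and 4.47 CPM in FLOX-HFHS, against 5.28, 2.34 and 3.01 CPM in LKO-NC and 5.71, 4.01 and 1.75 CPM in FLOX-NC. The HFHS libraries all lay inside the NC range, and the log2 fold change was 0.21 ± 0.28 with an adjusted p of 0.69.

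Of the 5 contractile and stellate cell genes only Reln passed the test. Acta2 encodes alpha smooth muscle actin, a standard marker of activated stellate cells that vascular smooth muscle also makes. It had 1.75, 0.78 and 2.65 CPM in LKO-HFHS and 7.37, 1.88 and 1.11 CPM in FLOX-HFHS, against 3.22, 2.52 and 10.4 CPM in LKO-NC and 2.62, 27.1 and 0.822 CPM in FLOX-NC. FLOX-NC replicate 2, LKO-NC replicate 3 and FLOX-HFHS replicate 1 were high and the diets overlapped. The log2 fold change was -1.62 ± 0.79 with an adjusted p of 0.218, and without FLOX-NC replicate 2 it was -0.32 ± 0.58 with an adjusted p of 0.797. In FLOX alone it was -1.59 ± 1.11, and 1 ± 0.90 without that library (adjusted p 0.504 and 0.674). In the 250 bases before its start (minus strand of chromosome 19), Acta2 had CArG boxes in 2 places, CCCTATATGG from base 84 and CCTTGTTTGG from base 34 before the start, shown because this motif is the known serum response element of contractile genes.

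Tagln, the actin-binding protein transgelin, and Des, the intermediate filament desmin, had log2 fold changes of -0.41 ± 0.57 and -0.31 ± 0.38 (adjusted p 0.71 and 0.663). Without FLOX-NC replicate 2 these values turned to 0.30 and 0.17 (adjusted p 0.766 and 0.796). Tagln had 16.9 CPM and Des 17.2 CPM in FLOX-NC replicate 2, the highest value of each, and Tagln had 16.8 CPM in LKO-NC replicate 3. Vim, the mesenchymal intermediate filament vimentin, had 0.90 ± 0.36 (adjusted p 0.13), and without FLOX-NC replicate 2 it had 1.34 ± 0.29 (adjusted p 0.0167). Reln, a secreted glycoprotein that marks stellate cells in liver, rose by 1.02 ± 0.24 (adjusted p 0.0151).

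Some markers of vascular smooth muscle were high in FLOX-NC replicate 2, as were Acta2, Tagln and Des. In the list of 9 such markers, 8 passed the filter and none was at 0 everywhere. Under the averaged diet 0 were called, beside 11.1% of all tested genes. Their median log2 fold change was -1.53, beside 0.02 over all tested genes. The summed level of the list was 32.3 to 59 CPM in LKO-HFHS and 35.6 to 51.6 CPM in FLOX-HFHS, against 29.9 to 48.9 CPM in LKO-NC and 31.7 to 96.3 CPM in FLOX-NC. The highest sum was in FLOX-NC replicate 2, where Myh11, smooth muscle myosin, had 21.1 CPM, against 0.555 to 7.1 CPM in the other 11 libraries. Cnn1, calponin, had 4.84 CPM there and 1.82 CPM in LKO-NC replicate 3, and 0 to 0.332 CPM in the other 10 libraries. Lmod1, Actg2 and Synpo2 were also highest in FLOX-NC replicate 2. Mylk, the largest part of the sum, had 52.8 CPM there and 57.5 CPM in FLOX-NC replicate 1. Smtn had 2.95 and 4.15 CPM in these libraries, and Notch3 and Myocd were at 0 CPM in FLOX-NC replicate 2. The part of these markers in the Acta2, Tagln and Des values was not tested.

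**Figure D4:**
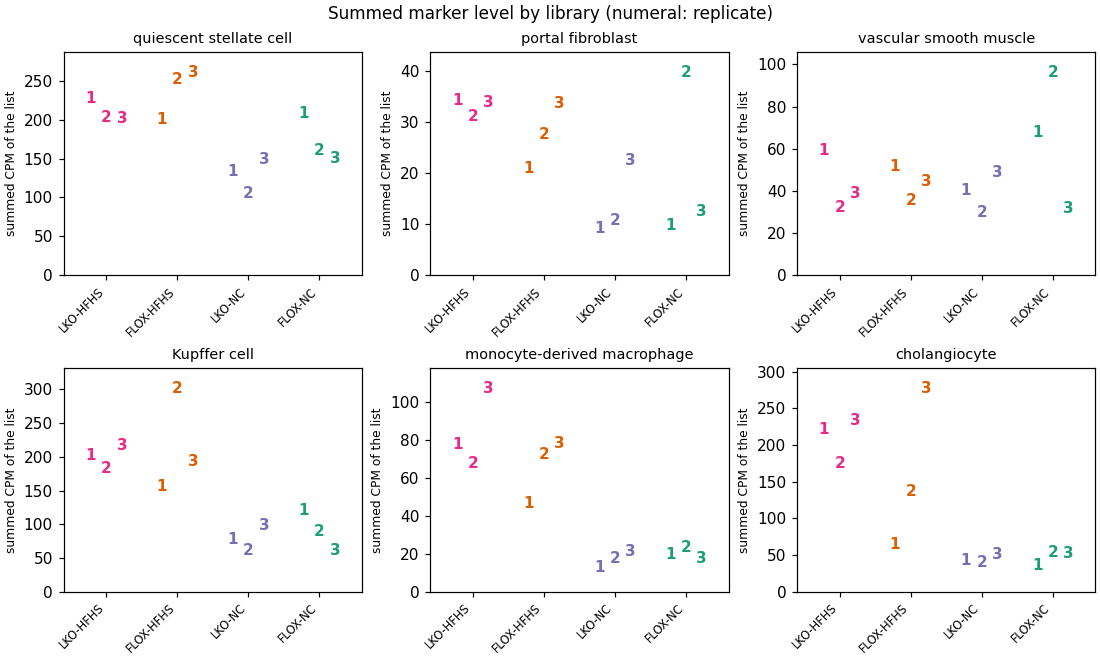
Summed CPM of 6 marker lists in every library, numerals giving the replicate and HFHS groups standing left of NC groups. Macrophage and Kupffer cell sums are higher in all HFHS libraries than in all NC libraries, the cholangiocyte sum is so only with Spp1 counted, and the smooth muscle and portal fibroblast sums are highest in FLOX-NC replicate 2.

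Stellate cell markers outside the 44 genes rose in part. Of 17 listed markers of quiescent stellate cells, of which Reln is also among the 44 genes, 6 rose and 0 fell under the averaged diet, where 6.17% of all tested genes rose and 4.94% fell, with a median log2 fold change of 0.39. Values ran from -1.74 to 1.44, and 12 of the 17 were positive, beside 51.6% of all tested genes. Hhip had 0.15 to 0.456 CPM in LKO-HFHS and 0 to 0.711 CPM in FLOX-HFHS. On the control diet Hhip had 0.29 to 2.04 CPM in LKO-NC and 0.763 to 2.27 CPM in FLOX-NC. Rgs5, a pericyte signalling regulator, rose by 1.44 ± 0.22, Colec11, a collectin, by 1.06 ± 0.21, Hand2, a transcription factor, by 1.02 ± 0.22 and Lrat, which esterifies retinol for storage, by 1.17 ± 0.28 (log2, SE; adjusted p 0.00141, 0.0058, 0.0102 and 0.0188). The summed level of this list was 202 to 227 CPM in LKO-HFHS and 200 to 261 CPM in FLOX-HFHS, against 105 to 149 CPM in LKO-NC and 150 to 208 CPM in FLOX-NC. Of 10 portal fibroblast markers 7 were tested and 1 rose, Entpd2, an ectonucleotidase (1.75 ± 0.32, adjusted p 0.00408). Their sum was 31 to 34.1 CPM in LKO-HFHS and 20.8 to 33.5 CPM in FLOX-HFHS, against 9.07 to 22.4 CPM in LKO-NC and 9.79 to 39.7 CPM in FLOX-NC.

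Most macrophage and Kupffer cell markers rose with the matrix genes under the averaged diet, where 6.17% of all tested genes rose and 4.94% fell. Hepatocyte markers fell in part. The part of these cell markers in the matrix differences was not tested. The 10 markers of monocyte-derived macrophages summed to 67.7 to 107 CPM in LKO-HFHS and 46.3 to 78.1 CPM in FLOX-HFHS, against 12.9 to 21.1 CPM in LKO-NC and 17.5 to 23.4 CPM in FLOX-NC, and 9 of 10 rose. Of the 10, Trem2, Gpnmb and Mmp12 had 0 to 0.616 CPM in NC libraries. They passed the filter on low counts only through their HFHS libraries. The 11 Kupffer cell markers summed to 183 to 216 CPM in LKO-HFHS and 156 to 301 CPM in FLOX-HFHS, against 60.4 to 98.8 CPM in LKO-NC and 60.7 to 121 CPM in FLOX-NC, and 8 of 11 rose. Timd4 had 0.742 to 1.65 CPM in LKO-HFHS and 1.03 to 5.03 CPM in FLOX-HFHS. On the control diet Timd4 had 1.26 to 2.56 CPM in LKO-NC and 1.84 to 6 CPM in FLOX-NC. The diets also overlapped for Marco and Cd163. The 10 cholangiocyte markers, of whose sum Spp1 (osteopontin) made up 52% to 89.1% by library, summed to 175 to 234 CPM in LKO-HFHS and 64.6 to 277 CPM in FLOX-HFHS, against 40.2 to 51.2 CPM in LKO-NC and 35.5 to 53.6 CPM in FLOX-NC. Without Spp1, left out after the data were seen, the sum was 20.2 to 31.3 CPM in LKO-HFHS and 13.2 to 38.6 CPM in FLOX-HFHS, against 7.58 to 21.1 CPM in LKO-NC and 12.2 to 17 CPM in FLOX-NC, and the diets overlapped. Of the 13 hepatocyte markers 7 fell, beside 4.94% of all tested genes. In the smaller lists Gpm6a rose among 5 tested mesothelial markers, Lyve1 among 13 of sinusoidal endothelium and 2 of 9 cholangiocyte markers, Epcam and Spp1. The 1 of 13 was near the 6.17% of all tested genes that rose. Of adipocyte markers 3 of 5, and of exocrine pancreas markers 4 of 6, were at 0 in every library; the single tested member of each was not called in the first and was lower in the second, Cela1 at -1.41 (log2).

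Other genes that make, cut or bind matrix rose in part under the averaged diet, where 6.17% of all tested genes rose and 4.94% fell. Of 18 tested genes of collagen processing 4 rose and 0 fell, with Serpinh1, the collagen chaperone HSP47, at 1.30 ± 0.23, Adamts2, a procollagen N-proteinase, at 1.36 ± 0.31, Colgalt1, a collagen galactosyltransferase, at 0.66 ± 0.18 and Pcolce, a procollagen proteinase enhancer, at 1.02 ± 0.30 (log2, SE; adjusted p 0.00359, 0.0139, 0.0312 and 0.0481). Serpinh1 had 31.2, 23 and 28.7 CPM in LKO-HFHS and 29.9, 27.5 and 37.7 CPM in FLOX-HFHS, against 15.5, 7.67 and 18.1 CPM in LKO-NC and 6.9, 14.9 and 9.73 CPM in FLOX-NC, with no overlap between diets. Of 17 other proteases and inhibitors tested, 6 rose and 0 fell, among them Plau, the urokinase, by 2.26 ± 0.38 and Adamts5, an aggrecanase, by 1.29 ± 0.28 (log2, SE; adjusted p 0.0023 and 0.0105). Mmp12, the macrophage elastase and also one of the macrophage markers, had 5.21 to 13 CPM in LKO-HFHS and 3.86 to 4.96 CPM in FLOX-HFHS, against 0 to 0.29 CPM in LKO-NC and 0 to 0.196 CPM in FLOX-NC. Mmp7, matrilysin, had 2.33 to 3.89 CPM in LKO-HFHS and 0.4 to 2.49 CPM in FLOX-HFHS, against 0 to 0.252 CPM in LKO-NC and 0 CPM in every FLOX-NC library. Both were called higher (adjusted p 0.000246 and 0.0011), with fitted folds that rest on few NC counts. Mmp12 and Mmp7 passed the filter on low counts only through their HFHS libraries, as Timp1 did. In the same list Mmp13 had 0 to 0.289 CPM in NC libraries and 0.4 to 2.71 CPM in HFHS libraries. Plat had 1.58 CPM in FLOX-NC replicate 2, 0 to 0.198 CPM in the other NC libraries and 1.05 to 3.35 CPM in HFHS libraries. The count of 6 therefore rests in part on genes near 0 in NC libraries.

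Of 23 tested genes of TGF-beta signalling, 1 rose and 1 fell under the averaged diet, no larger a share than the 11.1% of all tested genes called (6.17% higher, 4.94% lower). Tgfbr2, the type II receptor, rose by 1.27 ± 0.34 and Serpine2, a secreted inhibitor of serine proteases, fell by 2.18 ± 0.32 on the log2 scale (adjusted p 0.0293 and 0.000939). Inhba, an activin subunit, had -0.56 ± 0.20 and Smad7, an inhibitory Smad, 0.61 ± 0.25 (adjusted p 0.0895 and 0.136). Of 5 tested genes of platelet-derived growth factor signalling, the ligand Pdgfb rose by 1.91 ± 0.48 and Pdgfrl fell by 3.38 ± 0.79 on the log2 scale (adjusted p 0.0236 and 0.0175). Pdgfrl had 0.257 to 0.923 CPM in LKO-HFHS and 0.606 to 2.27 CPM in FLOX-HFHS. On the control diet Pdgfrl had 13.6, 2.7 and 0.811 CPM in LKO-NC and 33.6, 10.2 and 2 CPM in FLOX-NC. The diets overlapped, and replicate 1 was the highest library of every group. Of 19 tested matrix receptors 6 rose and 1 fell, with the hyaluronan receptor Cd44 at 1.5 ± 0.24, the integrin subunit Itga1 at 0.74 ± 0.15, the collagen receptor Ddr2 at 1.19 ± 0.26 and the syndecan Sdc4 at -0.80 ± 0.18 (adjusted p 0.00165, 0.00823, 0.0102 and 0.0138). Of 27 other matrix glycoproteins tested 6 rose and 1 fell, with osteopontin, Spp1, also a cholangiocyte marker, at 2.33 ± 0.32, Fstl1, a follistatin-like glycoprotein, at 1.53 ± 0.25, Prelp, a leucine-rich proteoglycan, at 1.40 ± 0.24 and Smoc2, a matricellular calcium-binding protein, at 2.30 ± 0.48 (adjusted p 0.000657, 0.00179, 0.00264 and 0.00842). Of 12 other basement membrane genes the laminin Lama2 rose by 2.42 ± 0.67 and Lama3 fell by 2.82 ± 0.51 on the log2 scale (adjusted p 0.0353 and 0.0038), counts near those shares of all tested genes. Of 11 other collagens 0 were called by edgeR.

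Within LKO livers 15 of the 44 genes rose on the diet and 0 fell. Of all tested genes 3.75% were called, 2.25% higher. The 15 were Col1a1, Col1a2, Col3a1 and Col5a1, Col4a1, Lamb1 and Nid1, Col6a3, Bgn, Sparc and Thbs2, Timp1, Mmp2 and Loxl2, and Pdgfrb. Nid1 had the smallest adjusted p at 2.80 ± 0.38 (log2, SE; adjusted p 0.00208), and Col1a1 rose by 3.16 ± 0.66 (adjusted p 0.0188). The 3 LKO-HFHS libraries lay above the 3 LKO-NC libraries for 32 of the 44 genes, beside 16.9% of tested genes, and below them for 0, beside 13%. The median log2 fold change was 1.57, beside 0.05 over all tested genes, and 38 of the 44 values were positive, beside 53.4%. With the replicate number as a blocking factor, which the libraries of this comparison may share, Col1a1, Col1a2 and Col3a1 had values of 3.24, 2.52 and 2.40 and were no longer called (adjusted p 0.0527, 0.0929 and 0.106). The call count rested on single libraries, at 2 without LKO-NC replicate 2, the library that went against its label, 2 without LKO-HFHS replicate 3, 3 without LKO-HFHS replicate 1 and 5 without LKO-NC replicate 1, and it was 30 with DESeq2.

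Within FLOX livers 5 of the 44 genes rose on the diet, Col4a1, Col4a2, Col15a1, Nid1 and Sparc, and 0 fell. Of all tested genes 2.9% were called, 1.6% higher. Col15a1 had 3.29, 4.54 and 5 CPM in FLOX-HFHS, against 0.564, 1.36 and 0.661 CPM in FLOX-NC, with no overlap, and rose by 2.30 ± 0.46 (log2, SE; adjusted p 0.0185). Col1a1, Col1a2 and Col3a1 had log2 fold changes of 1.68 ± 0.62, 1.29 ± 0.55 and 1.94 ± 0.56 (adjusted p 0.176, 0.246 and 0.0916). Without FLOX-NC replicate 2 they were 2.55 ± 0.65, 2.04 ± 0.56 and 2.97 ± 0.50, and Col3a1 was called (adjusted p 0.0906, 0.113 and 0.0154). The FLOX-HFHS libraries lay above FLOX-NC for 19 of the 44 genes, beside 10.6% of tested genes, and below for 1, Col18a1, beside 8.99%. The median log2 fold change was 0.96, beside -0.01 over all tested genes, and 40 of the 44 values were positive, beside 49.5%. Leaving out 1 FLOX-HFHS library gave 9, 1 or 0 calls, for replicates 1, 2 and 3. Leaving out FLOX-NC replicate 3 gave 2 calls, and leaving out FLOX-NC replicate 1, LKO-NC replicate 1, LKO-HFHS replicate 1 or LKO-HFHS replicate 3 gave 3. DESeq2 called 13.

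**Figure D5:**
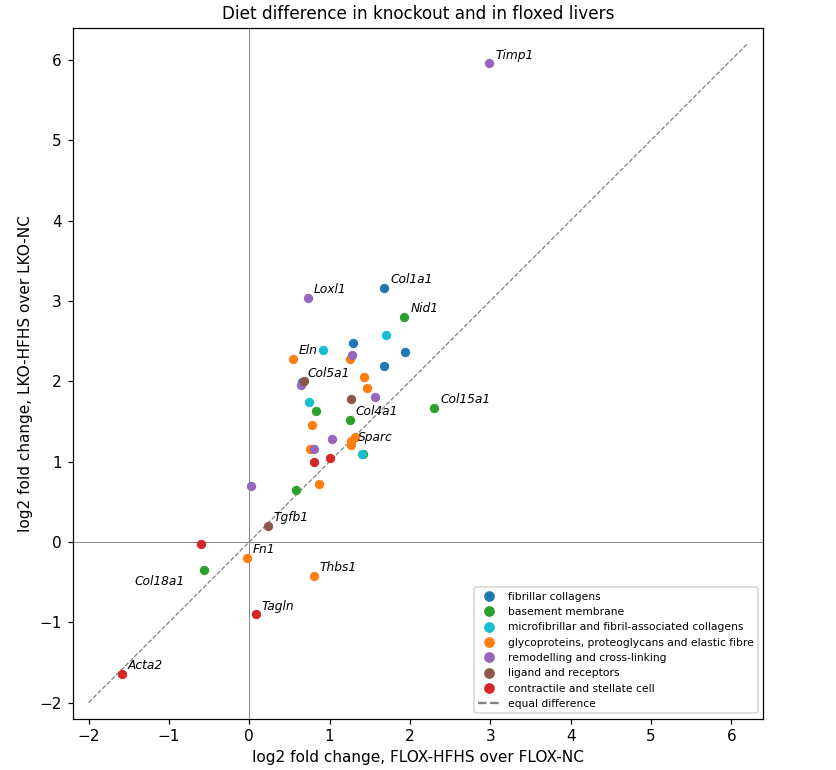
Log2 fold change of each gene by the diet in LKO (vertical) against that in FLOX (horizontal), coloured by role, with the dashed line marking equal differences. Most points lie up and right of 0, Timp1 stands at 5.96 and 2.99, and Acta2 lies down and left at -1.64 and -1.59.

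The difference of the diet effect between LKO and FLOX was tested as an interaction, and 0 of the 44 genes were called, as were 0% of all tested genes (edgeR quasi-likelihood). At an unadjusted p under 0.05 there was 1, Col5a1, named only as a description because the share of all tested genes is not given here. DESeq2 and voom also called 0 of the 44. Col5a1 had a diet log2 fold change of 1.99 ± 0.39 in LKO and 0.65 ± 0.38 in FLOX, an interaction of 1.33 ± 0.53 (unadjusted p 0.0271, adjusted p 0.955). The median interaction over the 44 genes was 0.44 (log2), beside 0.05 over all tested genes, and 32 of the 44 values were positive, beside 53.3%. For Col1a1 it was 1.47 ± 0.86, for Col3a1 0.42 ± 0.77, for Acta2 -0.06 ± 1.52, for Tgfb1 -0.03 ± 0.56 and for Timp1 2.98 ± 1.63 (log2, SE), each with an adjusted p of at least 0.955. Most of these values moved with FLOX-NC replicate 2, without which they were 0.61 for Col1a1, -0.61 for Col3a1, -2.65 for Acta2, -0.07 for Tgfb1 and 0.71 for Timp1 (adjusted p of at least 0.991). Without LKO-NC replicate 2 the Col3a1 value was 0.06, the Acta2 value -0.40 and the Tgfb1 value -0.26.

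The knockout itself was compared on each diet. On HFHS 0 of the 44 genes were called between LKO and FLOX, as were 0% of all tested genes, and 0 were at an unadjusted p under 0.05 (edgeR quasi-likelihood). Lpcat3, the targeted gene, was itself not called here, at -1.51 ± 0.35 (log2, SE; adjusted p 0.683). The absence of calls therefore cannot show that the 44 genes did not differ. DESeq2 and voom also called 0 of the 44. The log2 fold changes ran from -0.97 to 0.49 with a median of 0.02, beside 0.01 over all tested genes, and 23 of the 44 values were positive, beside 51.7%. Col1a1 stood at 0.12 ± 0.60, Col1a2 at 0.01 ± 0.54, Col3a1 at -0.22 ± 0.54, Tgfb1 at -0.13 ± 0.40, Timp1 at 0.17 ± 0.99 and Acta2 at -0.97 ± 1.11 (log2, SE; adjusted p 1 for each). The LKO-HFHS libraries lay below FLOX-HFHS for Col14a1, Fbn1 and Postn, 3 of the 44 genes, beside 5.47% of tested genes, and above for 0, beside 5.9%.

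On the control diet 0 of the 44 genes were called, as were 0% of all tested genes, and 3 were at an unadjusted p under 0.05 (edgeR quasi-likelihood), with 0 called by DESeq2 or voom. Those 3 were Thbs1, higher in LKO-NC at 1.5 ± 0.50 (log2, SE), and Col5a1 and Col6a2, lower at -1.15 ± 0.39 and -1.39 ± 0.62 (adjusted p 0.678, 0.678 and 0.701). The share of all tested genes at that unadjusted p is not given here, so the 3 are named only as a description. Lpcat3 was itself not called here, at -0.56 ± 0.35 (log2, SE; adjusted p 0.718), so the absence of calls cannot show that the 44 genes did not differ. The median log2 fold change was -0.50, beside -0.05 over all tested genes, and 7 of the 44 genes had a positive value, beside 46% of tested genes. LKO-NC replicate 2, with Lpcat3 at 65 CPM against its label, had the lowest median deviation of the 44 genes, -1.47 (log2). FLOX-NC replicate 2 had the highest of the NC libraries, 0.19. Col1a1 stood at -1.36 ± 0.63, Col1a2 at -1.19 ± 0.56 and Col3a1 at -0.64 ± 0.55, with adjusted p of 0.701, 0.701 and 0.749. Tgfb1 stood at -0.10 ± 0.40, Timp1 at -2.81 ± 1.30 and Acta2 at -0.91 ± 1.08, with adjusted p of 0.941, 0.701 and 0.803. The LKO-NC libraries lay below FLOX-NC for 5 genes, Col5a1, Col18a1, Lamb1, Mmp14 and Lox, beside 4.58% of tested genes. Without FLOX-NC replicate 2, Col1a1 stood at -0.49, Col1a2 at -0.43, Col6a2 at -0.70 and Timp1 at -0.54, and Col3a1 and Acta2 turned to 0.39 and 1.68 (log2; adjusted p 0.858 to 0.937). Without LKO-NC replicate 2, Col3a1 stood at -0.28 and Acta2 at -0.57, and Tgfb1 turned to 0.13 (log2).

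Beside the type IV pair, 3 other pairs of these genes lie near each other. Whether other genes lie between them was not checked. Col3a1 and Col5a2 lie 24614 bases apart on mm10 chromosome 1 with their ends facing and rose by 2.15 and 1.93 (log2). Lum and Dcn, 46984 bases apart on chromosome 10 on the same strand, rose by 1.74 and 1.31. Col6a2 and Col6a1, 85161 bases apart on chromosome 10 on the same strand, rose by 1.65 and 1.24.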

How the data were processed

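The tables the authors deposited hold estimated counts per gene and per transcript, which were whole numbers already, and FPKM per gene and transcript. The submitters' processing notes list HISAT2, StringTie, cutadapt, FastQC and edgeR and build mm10, without roles or versions, and the counting strand is not given in the sources used here. The labels' protocols name a stranded kit. No gene was without a name, and 0 columns were left without a sample.

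All 12 libraries entered 1 edgeR 4.0.16 quasi-likelihood fit (R 4.3.3, filterByExpr, TMM scaling, a term per group, 8 residual degrees of freedom), with 6 contrasts and Benjamini-Hochberg adjustment over 15982 genes. The test was planned for counts and kept for these estimated counts. CPM is TMM-scaled. Alternatives used DESeq2 1.42.0 and limma 3.58.1, limma also on log2 FPKM with a pseudocount of 0.1. The fits were tested on simulated data. No pair of libraries in a group agreed within counting noise.

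The 44 genes and the other lists were chosen with earlier results of these data known. All 44 are accounted for; up to 4 genes of smallest p are named from each role and list, and Col1a1, Col1a2, Col3a1, Acta2, Tgfb1, Timp1 and Lpcat3 in every comparison. Replicate numbers were read as pairing the libraries for the diet in LKO, where each of the 3 pairs with 1 number deviated together (r 0.101 to 0.294, over 0.1), a check of the data and not a statement of the labels.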

Additional observations from a re-analysis of the deposited data

How the results depend on the processing

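The diet averaged over genotypes called 20 to 32 of the 44 genes under every alternative run, against 29, and 23 to 31 with 1 library left out; 14 genes were called in all 23 settings. Calls within a genotype depended on the settings. For the diet in FLOX (5 genes) the count was 2 with no scaling factor, 13 with DESeq2, 17 with voom (16 higher), 1 on FPKM, 0 in a fit of only the FLOX libraries, 10 with a ribosomal RNA covariate, 9 without the 4 libraries numbered 1 and 0 to 9 with 1 library left out. For the diet in LKO (15 genes) it was 30 with DESeq2, 30 with voom, 6 without the libraries numbered 1, 2 to 22 with 1 library left out and 4 without FLOX-NC replicate 2 and LKO-NC replicate 2, the last chosen after seeing the data. The knockout comparisons and the interaction stayed at 0 in every setting. Leaving out the scaling factor shifted the median of all genes by 0.27 (log2) for the diet in LKO, 0.44 for the knockout on HFHS, where the 44 genes' median became 0.45, and 0.35 for the interaction.

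Blocked on replicate number, the diet in FLOX called 10 genes, the diet in LKO 20 (12 of the 15 among them) and the averaged diet 31 (all 29 among them). By the correlation check, which asked every pair with 1 number to exceed 0.1, the numbers did not pair the FLOX libraries (r 0.255, -0.033 and 0.065). In LKO 1 pair of unlike number also correlated above 0.1 (r 0.111). The libraries numbered 1 deviated together in every comparison. Their r was 0.255 for the diet in FLOX, 0.294 for the diet in LKO, 0.3 for the knockout on NC and 0.233 for the knockout on HFHS.

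In the averaged diet, 4 genes that were never called changed sign. Fn1 was at 0.04 with the ribosomal RNA covariate, and at -0.20 to 0.01 with 1 library left out, positive without FLOX-NC replicate 3. Thbs1 was at -0.09 without the libraries numbered 1, and at -0.01 to 0.44 with 1 library left out, negative without LKO-NC replicate 2. Tagln ran from -0.73 to 0.30 with 1 library left out, reaching 0.30 when FLOX-NC replicate 2 was dropped, 0.12 when LKO-NC replicate 3 was, and 0.08 with both second control libraries dropped. Des ran from -0.52 to 0.17, at 0.17 without FLOX-NC replicate 2 and 0.01 (log2) without both. The cause was not tested. For low genes such as Timp1, Lox and Mmp7, a few counts per NC library limit the folds.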
